A study of Vitis vinifera with 12 samples.

Results

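Of the 1584 distinct natural miRNA probes on a custom grapevine oligonucleotide array, 99 were shifted a few bases upstream of a mature miRNA. The reverse complement of each shared at least 9 bases, without gaps or mismatches, with a mature sequence listed by the study, and started 4 to 7 bases before its 5′ end. In 82 of the 99 the shift was exactly 5 bases and 15 bases were shared. The 99 probes came from 28 miRNA families and filled 135 of the 1952 rows of natural miRNA probes, because some sequences were spotted under more than 1 name. Members are named here by their miRNA and by the bases that precede the shared stretch, so that miR166 aagct is the probe against aagct followed by the first 15 bases of miR166.

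The array was hybridized with Cy5-labelled low molecular weight RNA from Vitis vinifera cv Corvina, with 2 arrays for each of 6 tissues and a separate RNA extraction for each array. The tissues were leaves of plants before flowering, young inflorescences collected 3 weeks before flowering, roots, and 3 stages of berry. Green berries were collected 5 weeks after flowering, those at veraison (the onset of ripening) 9 weeks and mature ones 15 weeks after it. The root samples were taken from in vitro plants and all other tissues from the field, so that organ and growth condition cannot be told apart for roots, and leaves, roots and berries were pools. Nothing in the labels says whether the 2 arrays of a tissue came from separate plants, so p-values measure the spread between arrays only, which may be technical.

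Plant miRNAs are cut from a folded precursor by a Dicer-like enzyme and guide an ARGONAUTE protein to mRNAs that match them closely. Their 5′ end is usually precise, so a probe that reaches upstream of it has bases that the mature RNA does not hold, while it can still pair with the rest. Probes of this kind were placed on the array to test its specificity, and according to the methods all probes were synthesized with their 3′ ends towards the slide, which is the end that carries the upstream bases of a member.

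The sequences below belong to 7 miRNAs that span the range of signal kept, and they show how members of 1 miRNA differ only in the bases before the mature 5′ end. The members shown are 20 of the 28 whose signal could be set against a mature probe. Each is the RNA target, written as DNA from 5′ to 3′ and read as the reverse complement of the deposited probe, with the bases shared by member and mature sequence in capitals.
mature miR171e: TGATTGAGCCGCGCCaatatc
miR171e atctc: atctcTGATTGAGCCGCGCC
mature miR171h: TGGTTGAGCCGCGCCaatatc
miR171h atgtt: atgttTGGTTGAGCCGCGCC
mature miR390: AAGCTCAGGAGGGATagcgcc
miR390 ctgtt: ctgttAAGCTCAGGAGGGAT
mature miR166a: TCGGACCAGGCTTCAttcct
miR166 aagct: aagctTCGGACCAGGCTTCA
miR166 aggtg: aggtgTCGGACCAGGCTTCA
miR166 tgatc: tgatcTCGGACCAGGCTTCA
miR166 tgatt: tgattTCGGACCAGGCTTCA
miR166 tgccc: tgcccTCGGACCAGGCTTCA
miR166 tgtcg: tgtcgTCGGACCAGGCTTCA
mature miR160c: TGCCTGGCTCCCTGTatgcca
miR160c atata: atataTGCCTGGCTCCCTGT
miR160c ggttg: ggttgTGCCTGGCTCCCTGT
miR160c ttaca: ttacaTGCCTGGCTCCCTGT
mature miR167a: TGAAGCTGCCAGCATgatctg
miR167 ataag: ataagTGAAGCTGCCAGCAT
miR167 gaggt: gaggtTGAAGCTGCCAGCAT
miR167 gcagt: gcagtTGAAGCTGCCAGCAT
miR167 tcagt: tcagtTGAAGCTGCCAGCAT
mature miR403a: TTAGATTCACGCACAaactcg
miR403a cgccg: cgccgTTAGATTCACGCACA
miR403a cggcg: cggcgTTAGATTCACGCACA
miR403a gggtg: gggtgTTAGATTCACGCACA
miR403a tggtc: tggtcTTAGATTCACGCACA

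The signal of a probe was the deposited median intensity, on a linear scale and not normalized, and the percent kept was the member's intensity over that of the probe equal to its mature sequence on the same array. Where several mature sequences shared the same bases, the mean of their probes was used. A ratio was taken only in tissues where the mature probe was present, that is, above the mean plus 2 SD of the 14 negative and degradation controls on both arrays and more than 1.2 times its mismatch probe, a copy with 2 substitutions. An equal mature probe existed for 78 members and not for 21. Of the 78, 28 members of 10 families had a mature probe present in at least 1 tissue, which gave 88 pairs of a member and a tissue, and the other 50 had none and no ratio. One control, a ubiquitin fragment, set much of this level, which lay between 666 and 4353 across arrays with it and between 283 and 949 without it. Without this control 55 members of 16 families gave 208 pairs. Intensities of the members were under the level on both arrays in 35 of the 88 pairs and above it on both in 18, so that many low ratios rest on signals near background.

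Over the 88 pairs the members kept a median of 26.8% of the mature signal, between 2.56% and 193%. The median was 3.37% for probes that started 4 to 7 bases downstream of the 5′ end (75 pairs), 4.78% for those 8 to 12 bases upstream (101 pairs) and 1.92% for those 8 to 12 bases downstream (85 pairs). Only 15 of the 88 pairs of members were under 10%, against 68 of 75, 72 of 101 and 77 of 85 for the other shifts. Each shifted probe was then tested against 10% with a moderated t statistic (limma squeezeVar, two-sided, Benjamini-Hochberg over the 123 shifted probes of all 4 shifts with a ratio on at least 2 arrays). Of the 28 members tested, 13 were above 10% at an adjusted p of 0.05, 1 was below and 14 were neither. Over all 123 shifted probes, 10.6% were above and 43.9% were below. No probe of the other 3 shifts passed the test above 10%, while 12 of 29 downstream and 19 of 32 and 22 of 34 of the farther probes passed it below. The 13 members above 10% were 5 of miR166, 2 of miR160c, both of miR171 and 1 each of miR390, miR319g, miR535a and miR159c.

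Upstream and downstream probes of the same mature sequence were compared directly in 13 mature sequences, by the mean log2 intensity of their upstream members minus that of their downstream probes on the same arrays. The upstream side was brighter in 10 of the 13 (76.9%, limma squeezeVar moderated t, adjusted p under 0.05), and the downstream side in none. The difference was 5.10 ± 1.49 (SE) on the log2 scale in miR171e over 2 arrays (adjusted p = 0.0021). It was 5.03 ± 0.74 in miR166 over 8 arrays (adjusted p = 7.6e-08). There 6 upstream members faced 2 downstream probes, with fitted levels of 0.193% and 6.38%. The log2 difference leans on the dimmer of these, and mean percents were 48.3% upstream and 5.58% downstream. Each SE rests on 1 variance shared by all 13 sequences. It thus reflects the number of arrays and not the spread within a sequence, and the p-values rest on it. The log2 difference was smaller in miR535a (2.62 ± 0.86, adjusted p = 0.0057) and did not pass in miR403a (1.59 ± 1.05, adjusted p = 0.16). In the miR156 family the sign was the other way without passing the test, with -0.46 ± 0.86 in miR156f (adjusted p = 0.64) and -0.57 ± 1.49 in miR156a (adjusted p = 0.70), where the downstream probe kept 39.4% and the upstream member 22.6%. Leaving out 1 array ended the call in miR171e and miR159a, which then lacked the arrays for a test, and in miR390 without the first leaf array (adjusted p = 0.087).

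The members of miR171, a family that targets GRAS transcription factors of meristems, were brighter than their mature probe on every array where the ratio was taken. In inflorescences miR171e atctc read 4048 and 9950 and its mature probe 2461 and 5028, so that 164% and 198% were kept. For miR171h atgtt the intensities in inflorescences were 3444 and 8865 against 2653 and 6388, or 130% and 139%, and at veraison 1920 and 5034 against 1001 and 2578, or 192% and 195%. Both arrays of each tissue were above 100%, and both members were well above their mismatch probes, which read between 105 and 1244. The fitted level was 180% for miR171e (1 SE from 98.4% to 331%, adjusted p against 10% = 0.029) and 161% for miR171h (113% to 229%, adjusted p = 0.0030). The call for miR171e rests on the 2 inflorescence arrays. With the ubiquitin control left out of the background the same ratios could be taken in 5 tissues, all but leaves. There miR171e kept between 164% and 298% and miR171h between 118% and 296%, above 100% on all arrays, and miR171f tcaga kept 68.5% and 269% in inflorescences. The 15 shared bases of miR171f tcaga also lie whole within mature miR171e and miR171h, so its signal cannot be assigned to miR171f alone. Those of miR171e and miR171h differ in 1 of 15, and whether each member also bound the other form was not tested. The study reports that in leaves the miR171 RNA sequenced most often was shifted against its prediction. Whether such a shift moved with these percents was not tested.

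The single member of miR390, which triggers trans-acting siRNAs in flowering plants, also kept most of the signal but varied between arrays. In leaves miR390 ctgtt read 1788 and 6352 against 1449 and 9450, or 123% and 67.2%, and in inflorescences 1178 and 3878 against 2936 and 4983, or 40.1% and 77.8%. The 2 arrays of a tissue thus differed by more than the tissues did. The fitted level was 71.3% (1 SE from 48.7% to 105%, adjusted p = 0.0090). With arrays averaged per tissue first it did not pass the same moderated t test (adjusted p = 0.064).

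In miR166, which targets class III HD-ZIP genes of organ polarity, 6 members shared 1 stretch of 15 bases behind 6 different upstream stretches. The mature probe was that of miR166a, and it was present in roots and at the 3 berry stages. miR166c shares the same 15 bases but had no equal probe, so all percents of miR166 are against miR166a alone. The study counted far more leaf reads of miR166c. Of the normalized probes near miR166c, the brightest exceeded the miR166a probe in the mean of roots and of each berry stage. The dimmest was below it in all but green berries. Percents against miR166c were not tested and may be lower. For miR166 aagct, which had the highest fitted level, the intensities were 2763 and 4152 in roots, 1982 and 19991 in green berries, 2822 and 1942 at veraison and 1272 and 1393 in mature berries. Its mature probe read 4206 and 9080, 3196 and 26514, 4692 and 3500, and 3077 and 2608 on those arrays, so that between 41.3% and 75.4% was kept on all 8. The other members followed it closely: on a single array the brightest of those above 1 was between 1.28 and 1.77 times the dimmest, while the median member moved between 33.0% and 60.6% across arrays. Fitted levels were 56.5% for aagct, 53.7% for tgatc, 53.4% for aggtg, 45.6% for tgccc and 45.3% for tgtcg, all above 10% (adjusted p from 0.00017 to 0.00034).
The remaining member, miR166 tgatt, was not called, since it read exactly 0 on the second veraison and second mature berry arrays. On the other 6 arrays it kept between 29.8% and 56.4%, and with values of 1 or less left out its level was 40.1% and passed the test (adjusted p = 0.0024).

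The miR160c members, of a family that targets auxin response factors, kept a median of 31.6%, a lower median than that of miR166. In inflorescences, where miR160c was brightest at 15214 and 5739, the member ttaca read 4228 and 1332, or 27.8% and 23.2%, and ggttg read 3346 and 1268, the latter 22.1% of the mature signal. Over 8 arrays of inflorescences, roots, veraison and mature berries the fitted level was 34.4% for ttaca (adjusted p = 0.0017) and 31.4% for ggttg (adjusted p = 0.0026). The member atata kept 44.0% and 47.0% in roots, where ttaca kept 50.7% and 38.0%, but read 0 on the second array of inflorescences, veraison and mature berries, where the first arrays gave 30.7%, 52.2% and 37.8%. Without these values of 0 its level was 41.7% (adjusted p = 0.0058).
Values of exactly 0 occurred on the second arrays of inflorescences, veraison and mature berries only, in 58, 80 and 82 of the 1952 natural rows. In 3 members, miR166 tgatt, miR160c atata and miR169e tctga, the only copy was at 0. In 3 more, miR167 gcagt, miR169r ggaat and miR160a tgttc, 1 of 2 copies was at 0 on some of these arrays while the other was not. For miR169r ggaat the other copy read 2150, 1643 and 1087, and the mean of both copies is the value used throughout. Slides were stripped and used again according to the methods, and whether that moved with these values was not tested.

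In miR167, which also targets auxin response factors, 4 members kept far less than those of miR166, although 15 bases were shared in both. Against 7 of 24 pairs in miR166, 0 of 16 in miR167 had the member above the background level on both arrays. The low miR167 percents thus rest in part on signals near background. In roots the mature probes averaged 2591 and 3637, and the members read 392 and 400 (ataag), 360 and 406 (gaggt), 297 and 310 (gcagt), and 309 and 305 (tcagt). Fitted levels lay between 9.83% for gcagt and 17.3% for gaggt, and none was told apart from 10% (adjusted p from 0.074 to 0.95). On the second mature berry array gaggt and tcagt were at 52.7% and 41.9% while gcagt was at 8.25%, where 1 of its 2 copies read 0. With copies at 0 left out, which was chosen after seeing the data, gcagt kept 16.5% on that array and 12.7% on the second veraison array, and its fitted level was 11.7% (adjusted p = 0.50). On the second mature berry array the mismatch probe of gaggt read 1080 against 1182 for the member itself.

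The 4 members of miR403a, which targets an ARGONAUTE gene in Arabidopsis, had the lowest family median, 3.92%. The mature probe read 2173 and 2070 in roots and 3197 and 1393 in green berries. The members lay between 27 and 186, all under the background level, and kept between 1.30% and 5.82%. All 4 fitted levels were under 5%, and 1 member, gggtg at 2.89%, passed the test below 10% (adjusted p = 0.047). That call was lost without any 1 of 7 arrays (both root arrays, both green berry arrays, and the second arrays of inflorescences, veraison and mature berries, adjusted p from 0.058 to 0.11). With the ubiquitin control left out, 3 more tissues could be measured, the fitted levels of the 4 members lay between 7.25% and 8.57%, and none passed the test (adjusted p from 0.41 to 0.64). Their median was then 8.74% in inflorescences, 12.7% at veraison and 29.3% in mature berries.

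In miR159 and miR319, related families that target MYB and TCP transcription factors, the member of miR159c was the only one measured in all 6 tissues. Its mature probe read from 8644 to 45639. miR159c ccttg kept 20.4% and 7.71% in leaves, 5.96% and 26.3% in inflorescences, 13.7% and 33.6% in roots, 19.6% on the first array of green berries (3216 against 16397, and 9148 against 45639 on the second), 25.5% and 30.1% at veraison and 7.66% and 27.0% in mature berries. Replicate arrays differed over 2-fold in 4 of these tissues, and the fitted 17.3% was above 10% (adjusted p = 0.037) but lost the call without any 1 of 7 arrays (adjusted p from 0.051 to 0.067). miR319g cactc kept 7.84% and 27.1% in inflorescences, 42.4% and 58.8% at veraison and 24.9% and 71.2% in mature berries (fitted 31.3%, adjusted p = 0.033). Its call was lost without 1 of 4 arrays (adjusted p from 0.056 to 0.080). miR159a ctggc was measured in roots alone, at 11.5% and 30.3%, and was dimmer than its own mismatch probe on both arrays (220 and 1031 against 639 and 2990).

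In most pairs of miR535 and of miR156, a family that targets SPL genes, the member did not exceed 1.2 times its mismatch probe on both arrays. miR535a ttgct read 478 and 4426 in roots against 4332 and 3577 for its mature probe, the second being 124%. It kept 49.0% and 61.3% at veraison and 14.9% and 57.1% in mature berries, and its mismatch probe was brighter than or close to it on all but the first root array (225 against 478). The fitted 39.0% passed the test (adjusted p = 0.025), and did not without the second veraison or the second mature berry array (adjusted p = 0.065 and 0.067). The 3 miR156f members kept between 2.48% and 16.5% in inflorescences, between 0.0422% and 33.0% in roots and between 10.5% and 41.1% in mature berries. The miR156a member tatgt kept 28.0% and 17.2% in inflorescences, below its mismatch probe (471 and 3490 against 593 and 7220). No miR156 member passed the test. Over all families, the member was more than 1.2 times its own mismatch probe on both arrays in 69 of 88 pairs. None of the 3 pairs of miR535 and 2 of the 10 of miR156 did so, against all 8 of miR403, all 3 of miR171 and 22 of 24 of miR166. In 81 of the 99 members both substitutions of the mismatch probe lay in the shared bases, and in 18 only 1 did.

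The order of the families followed the base composition of the shared stretch in part. Over the 13 mature sequences measured, log2 of the median percent kept had a Pearson r of 0.73 with the GC content of the shared bases and of 0.77 with a nearest-neighbour melting temperature computed for an RNA and DNA duplex. Spearman's rho was 0.68 and 0.70. These are descriptions over related sequences read on the same arrays. The shared bases of miR171e and miR171h, which kept most, were 66.7% and 73.3% GC, and those of miR403a, which kept least, 40.0%. The shared bases of miR159c were also 40.0% GC. miR535a kept 55.2% at 46.7% GC, while miR167 with 53.3% GC kept 13.9% and miR160c with 66.7% GC kept 31.6%. With the ubiquitin control left out and 27 mature sequences, r was 0.62 and 0.68.

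With the ubiquitin control left out of the background, the median kept over the 208 pairs was 41.2%. Over 100% were 29 of them, from miR171, miR390, miR164, miR160a and miR169. miR160a differs from miR160c in 1 of the 15 shared bases, and its mature probe was 2.25 to 14.6 times dimmer than that of miR160c across the 12 arrays. Its member tgatc read 912 and 4165 in roots against 738 and 2521 for the mature probe, or 124% and 165%, and the miR160c member atata 1358 and 7338. The miR160c member was the brighter on both root arrays, while its percent kept was the lower. Cross-hybridization between the forms was not tested. The 3 members of miR164, which targets NAC genes, kept between 100% and 294% in leaves and inflorescences, but in none of the 6 pairs was a member more than 1.2 times its mismatch probe on both arrays. In miR169, which targets NF-YA genes, 14 members gave a median of 56.0%. The 2 members of miR169b kept 236% and 255% in mature berries, but in 0 of these 2 pairs was the member more than 1.2 times its mismatch probe on both arrays. The members of miR399, miR168 and miR477 kept medians of 18.6%, 21.8% and 23.9%, and that of miR162 kept 44.6%. In no pair of these families was the member above this lower background level on both arrays, so these percents rest on signals near background. In 0 of the 2 pairs of miR477 did the member exceed 1.2 times its mismatch probe on both arrays. Upstream minus downstream did not pass the moderated t test in miR168, miR399a, miR162 or miR477a (adjusted p from 0.077 to 0.96).

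The percent kept was not shown to differ between tissues for any member. Of 25 members measured in at least 2 tissues, 0 passed the moderated F test (limma squeezeVar, Benjamini-Hochberg over 99 shifted probes, 0% called), and 0 had an unadjusted p under 0.05. The smallest was 0.15, for miR156f tgttg. For miR166 the median over members was 61.2% in green berries, 51.6% at veraison, 47.0% in roots and 41.3% in mature berries, with ranges that overlapped between neighbours. With 2 arrays per tissue this does not show that the ratios were equal.

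Members were also compared between tissues by their own intensity, after quantile normalization over the natural probes and with limma's moderated F test over 3 groups. Between leaves, inflorescences and roots 7 of 20 members tested passed, against 29.5% of the 78 natural probes tested. A probe was tested if it was present in at least 1 of the organs, so that a member present in 1 organ alone had to be high there, and the count is no support for the direction. All 7 were under the background level on both arrays of each of the other organs. Folds are therefore lower bounds, a choice made after seeing the data, set against the higher of the member's value and the lowest natural probe above background on each array, on the normalized scale. Of these 7, 4 were brightest in roots and belonged to miR397, miR408 and miR398, families regulated by copper in Arabidopsis. The sequences are shown because their mature forms had no equal probe and no ratio by the rule.
miR397a aaacatc: aaacatcATTGAGTGCAGCG
miR408 taccca: tacccaTGCACTGCCTCTTC
miR398a tgtg: tgtgTTCTCAGGTCACCCCT
Before normalization miR397a aaacatc read 13837 and 12565 in roots, 226.5 and 302.5 in leaves and 269.5 and 84.2 in inflorescences. Roots were at least 4.44-fold higher than leaves and at least 5.14-fold higher than inflorescences (adjusted p of the F test = 7.3e-05), and at least 15.4-fold and 19.9-fold with the ubiquitin control left out of the background. miR408 taccca read 15316 and 44104 in roots and between 19 and 344 in the other organs, at least 9.14-fold higher than leaves and 31.7-fold without the ubiquitin control (adjusted p = 7.3e-05). miR398a tgtg read 8429 and 7240 in roots and between 63 and 437 elsewhere, at least 2.65-fold higher than leaves (adjusted p = 0.0013). A form longer by 1 base was at least 3.39-fold higher (adjusted p = 0.0017). The upstream bases of both forms also occur in mature miR398b, so their signal cannot be assigned to miR398a alone. Without the ubiquitin control 1 of the 2 leaf arrays was above background for both forms, and the bounds were 8.32-fold and 8.05-fold. No array of roots overlapped those of the other organs in these 4, which the filter favoured, so this too is no support for the direction.
The other 3 were miR171e, miR171h and miR171f, all brightest in inflorescences. The shared bases of miR171f tcaga lie whole within mature miR171e and miR171h, so its call cannot be told apart from theirs. Those of miR171e and miR171h differ in 1 of 15. Whether each also bound the other form was not tested, so their calls may not be separate. miR171e atctc read 4048 and 9950 there, 401.5 and 235 in leaves and 1024 and 1446 in roots. Inflorescences were at least 2.57-fold higher than leaves and at least 3.83-fold higher than roots (adjusted p = 0.0048). The bounds against leaves were 2.28-fold for miR171h and 1.56-fold for miR171f (adjusted p = 0.0070 and 0.0064). Without the ubiquitin control the bounds against leaves were 8.39-fold, 7.17-fold and 5.41-fold for miR171e, miR171h and miR171f, with 1 leaf array above background for miR171e and miR171h. The calls of miR171h and miR171f were lost without the second inflorescence array (adjusted p = 0.074 and 0.067). The mature probes of miR171e and miR171h also passed the test (adjusted p = 0.0064 and 0.014) and were brightest in inflorescences. They too were under the background level in leaves and roots and were tested only through inflorescences, so they are no support for the direction. Between the berry stages 0 of 15 members and 0 of 65 natural probes (0%) passed, and 1 member, miR395a tcctac, had an unadjusted p of the F test of 0.025.

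Where a mature sequence had no equal probe, the nearest probe within 3 bases of its 5′ end gave a comparison that was chosen after seeing the data. In roots miR397a aaacatc kept 63.5% and 47.5% of the intensity of such a probe, which read 21783 and 26442. miR408 taccca kept 30.5% and 67.3%, where the second value is set against a probe at the upper limit of the scanner. miR398b tttgct kept 1.43% and 0.0783%. For miR398a the nearest probe started 2 bases after the 5′ end and read 218.5 and 201.5 in roots, against 8429 and 7240 for the member. The study reports that the leaf RNAs it sequenced most often were shifted against its predictions in miR171, miR397 and miR398. The upstream bases of miR398a tgtg and the start of its shared stretch also occur, in the same order, in the listed mature miR398b and miR398c. Its signal thus cannot be assigned to miR398a alone, and which form gave it was not tested. The 3 members of miR395a, which targets sulphate assimilation genes, kept between 6.13% and 18.7% at veraison, where the nearest probe read 22128 and 16186. They kept between 22.1% and 70.1% in green berries, where it read 3178 and 11706, and between 16.2% and 29.1% in leaves. All 3 were under the background level on both leaf arrays. On the first leaf array they read between 320 and 401, and their mismatch probes between 2423.5 and 2986. On the second leaf array the members were brighter than their mismatch probes.

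Copies of a member on 1 array were compared in 17 members spotted more than once and above the ubiquitin-free background on an array. The brightest copy was a median of 1.12 times the dimmest over 153 pairs of a member and an array, and under 2-fold in 147. In 3 of the other 6 pairs 1 copy of miR169r ggaat was at 0, and in the remaining 3 the copies differed from 2.20-fold to 3.44-fold, the most in miR395a tcctac at veraison.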

How the data were processed

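For each of 12 arrays the authors deposited, per probe, the median intensity of its replicate spots on a linear scale, extracted with ScanArray Express and Microarray Imager and not normalized, and they deposited a table of intensities quantile-normalized over all probes. No source used here says if a local background had been taken off. Precision is limited by the number of arrays.

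Probes were placed by exact match against stretches of the 73 distinct mature sequences the study lists, of which 54 had an equal probe; ties went to the longest overlap, then to the shift nearest 5. Rows of identical sequence were averaged and values under 1 set to 1 before log2. Tests used limma 3.58.1 in R 4.3.3, with variances moderated by squeezeVar for ratios and with lmFit, eBayes and 6 groups for organs and berries, and were tested on simulated data. Melting temperatures came from Biopython 1.88. Named are the brightest and dimmest members of each family measured, the 5 highest and lowest, members past the organ or berry test, and the extreme upstream and downstream differences. The members and lists were chosen with earlier results of these data known. Alternatives changed the background level, the mismatch rule, tied probes, the shift, background subtraction, normalization, the test and the arrays used.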

Additional observations from a re-analysis of the deposited data

How the results depend on the processing

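The 13 members above 10% became 33 of 55 with the ubiquitin control left out, 1 of 7 with mature probes at least 3 times background, and 8 of 25 with arrays averaged per tissue first. They ranged from 10 to 13 when 1 array was left out. With averaged arrays the members of miR390, miR319g, miR159c and miR535a did not pass the moderated t test (adjusted p from 0.052 to 0.10). That of miR171e then lacked the tissues for a test. The 1 member below 10% became 0 with 3 SD, without ubiquitin, at 3 times background, with averaged arrays and with a replicate block. It became 4 with the brightest tied probe, 6 with the control median subtracted, 2 in the deposited normalized table, and 2 with nearest probes or with values of 1 or less left out (both chosen after seeing the data), and ranged from 0 to 4 when 1 array was left out. Sequences with the upstream side higher became 17 of 25 without ubiquitin and 2 of 2 at 3 times background, against 10 of 13, and ranged from 9 to 10 when 1 array was left out. The median of 26.8% became 41.2% and 34.7% under those alternatives and ranged from 25.8% to 31.7% when 1 array was left out. Upstream minus downstream turned to 0.16 in miR156a with no mismatch rule and to 0.30 in miR156f without the first root array (-0.83 to 0.30 over the arrays left out), without passing the test. With the control median subtracted miR156f passed with the downstream side brighter (-2.05, adjusted p = 0.027). Members past the organ test went from 7 to 2 with the one-way test of the methods after adjustment and stayed at 7 without adjustment, and ranged from 5 to 7 when 1 array was left out; without ubiquitin 7 of 39 passed.

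Labels number the arrays 1 and 2 in every tissue, but nothing ties equal numbers together, and deviations of equal-numbered arrays correlated between -0.75 and 0.73. With a replicate block 12 members were above 10%, with miR171e no longer passing (adjusted p = 0.066), while 10 sequences, 7 organ members and 0 berry members passed as before. Leaving out copies at 0 where another copy was not (chosen after seeing the data) kept these counts at 13, 1 and 10. Intensities near background limit the lowest ratios.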
